A study of Macaca mulatta with 12 samples.

Results

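The genes described are those that encode the proteins of the cytosolic ribosome, measured in the dorsal raphe nucleus of ovariectomized female rhesus macaques. A gene was taken as a member when a probe set of the array carried its symbol alone and that symbol was an RPL or RPS number, RPLP0, RPLP1, RPLP2 or RPSA, with kinases and pseudogenes left out. This gave 54 probe sets of 48 genes, of the 8226 genes that had a probe set with a single symbol. Of the 48, 28 encode proteins of the large subunit and 20 proteins of the small subunit, and for the 6 genes with 2 probe sets the brighter one by mean over all arrays stands for the gene. The rule for genes and probe sets used symbols and brightness and no difference between treatments. The genes were nonetheless chosen with earlier results of these data known.

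The series has 12 arrays, each of a separate monkey, in 4 groups of 3: estrogen, progesterone, estrogen plus progesterone, and placebo. All 12 animals were ovariectomized and carried subcutaneous Silastic capsules for 1 month, so every group lacks its own ovarian steroids and the placebo group stands for that state, not for an intact animal. Total RNA was hybridized to a human Affymetrix array, and the values are intensities on a linear scale with no unit. The titles of the progesterone arrays name progesterone but give the EP codes used for combined treatment, whereas their source names give P codes, and the source names were followed. The tissue label was set against markers of serotonin neurons: the serotonin transporter SLC6A4 read 220 to 495 and the transcription factor FEV 104 to 289 over the 12 arrays, while TPH1, a tryptophan hydroxylase, read 0.53 to 3.60, and TPH2, the form used by neurons, was not analysed here. Array medians ran from 74.2 to 87.1, and the number of animals limits the precision.

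Cytosolic ribosomes read messenger RNA in every cell. The small subunit holds the messenger and the decoding site, and the large subunit joins amino acids and passes the chain through an exit tunnel. Ribosomal protein messengers are among the most abundant of any cell and carry a pyrimidine-rich start that ties their translation to the mTOR pathway. They are kept in balance with one another because most of the proteins are needed in equal numbers. In neurons, ribosomes also lie in dendrites, near synapses. These genes have many processed pseudogenes of nearly the same sequence, and human probes were read with macaque RNA, so each intensity may include copies and is uncertain as a level of a single gene.

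No ribosomal protein gene passed the adjusted threshold of 0.05 in any comparison of the treatments. In limma's F test over the 4 groups, 0 of 45 tested members passed, where 0.0531% of all 7535 tested probe sets did, and at an unadjusted p below 0.05 there were RPS16 and RPL18, where 5.79% of all tested probe sets were. Both were higher with progesterone than in the other groups. Neither reached the threshold, and which cells a difference would lie in could not be seen, since in bulk tissue fewer cells of a type and less RNA per cell cannot be told apart.

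The members were bright. On a scale from 0 to 100 for the rank of a probe set's mean intensity among all 12558 probe sets other than controls, the median member stood at 98.0. In all, 37 of the 48 stood in the top 5 percent and 17 in the top 1 percent. The brightest was RPL41, which encodes the smallest ribosomal protein, with arrays at 10977, 8642 and 9305 with estrogen, 7872, 13166 and 12278 with progesterone, 11277, 9138 and 8994 with both hormones, and 11163, 10036 and 9517 with placebo. The groups overlapped, and the lowest and the highest of its 12 values were both progesterone arrays. RPL37A and RPS27, both small zinc-binding proteins, came next with means over the 12 arrays of 7347 and 7309.

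At the other end, 3 members fell below the brightness limit for testing. RPL39, a short protein that lines the exit tunnel, read 1.09 to 9.76 and was under the offset of 8.26 on 11 of 12 arrays. RPL39L, a copy of it best known from testis, read 6.34 to 15.4. RPL3L, a copy of RPL3 best known from heart and skeletal muscle, read 6.32 to 16.8. A low signal of a human probe on macaque RNA gives no level of the transcript, so these 3 genes are not described further one by one. They do enter the score of each array and the counts over all 48 genes given below. The other 45, 25 of the large and 20 of the small subunit, were tested, and the dimmest of them was RPS15A at a mean of 83.8.

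The replicate spread of the members was small beside that of all tested probe sets, which were not matched to them in brightness. The residual SD within groups, on the log2 scale, had a median of 0.22 over the 45 tested members, against 0.30 over all tested probe sets, and lay under that of the median probe set for 37 of them. It was lowest for RPS27 at 0.11 and highest for RPS15A at 0.55, the dimmest. RPS24, whose messenger is alternatively spliced at its end and which is mutated in some families with Diamond-Blackfan anaemia, had 0.45. The plot of residual SD by brightness shows these members among all tested probe sets. A typical 95% interval of a log2 change reached 0.43 to either side for a member.

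**Figure D1:**
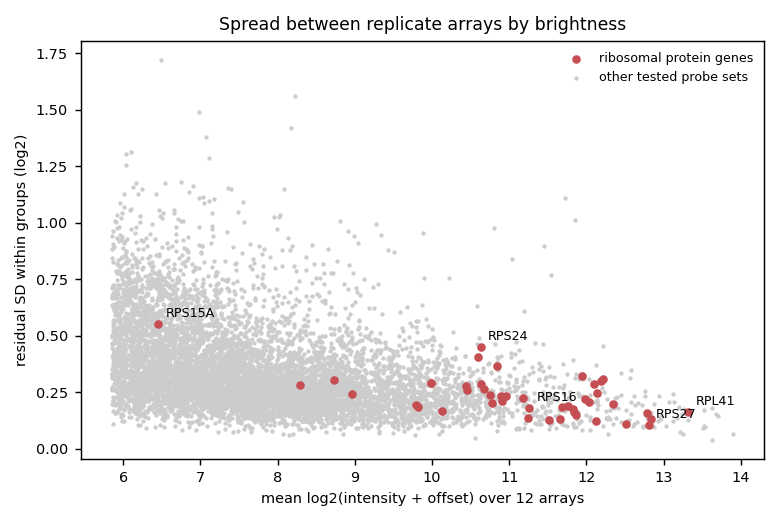
Residual SD within groups (log2) against mean log2 intensity over the 12 arrays, for the 45 tested ribosomal protein genes (red) and the other tested probe sets (grey). Most members lie at the bright end, and RPS15A at 0.55 and RPS24 at 0.45 have the highest residual SD among them.

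Estrogen was compared with placebo to see what the hormone alone did in animals without ovaries. The log2 change was above 0 for 23 members and below 0 for 22, with a median of 0.001, and for all tested probe sets the median was -0.005. None of the 45 passed the threshold, as none of all tested probe sets did (0%), and none had an unadjusted p below 0.05, where 3.16% of all tested probe sets had. No member had its deposited intensities separated between the groups, where 6.09% of all tested probe sets did. The large subunit genes had a median of 0.053, with 17 of 25 higher, and the small subunit genes a median of -0.040, with 6 of 20 higher. The values by subunit were not recomputed with an array left out. Without estrogen array 1, 16 of 45 members were higher (median -0.063), and without estrogen array 3, 32 were (median 0.071). The 95% interval stayed within 1.5-fold either way for 31 of 45 members and within 2-fold for 44, where 32% and 77.9% of all tested probe sets did.

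The highest log2 changes with estrogen belonged to large subunit genes. RPL31, which sits at the mouth of the exit tunnel, read 2150, 2558 and 2189 with estrogen and 2379, 1752 and 1803 with placebo. Placebo array 1 lay between the estrogen values, so the groups overlapped, and the log2 change was 0.26 ± 0.20 (SE), not past the threshold. RPL37, a zinc-binding protein of the large subunit, had a log2 change of 0.26 ± 0.25, and its highest estrogen array, number 1, read 7601, against 4788 and 4196 on the other estrogen arrays and 4875, 3820 and 4909 with placebo. RPL13 and RPL29, also of the large subunit, had 0.17 and 0.16. Without estrogen array 1, RPL37 had 0.043 and RPL29 -0.017, and without placebo array 3, RPL13 had -0.073.

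The lowest belonged mainly to small subunit genes. RPS15A read 30.0, 116 and 88.6 with estrogen and 106, 86.7 and 110 with placebo. Its log2 change of -0.56 ± 0.39 went with estrogen array 1, the lowest value of all 12, and the groups overlapped. Without that array it was 0.039, and without estrogen array 2 it was -0.92. RPS9 and RPS3, which border the channel where the messenger enters, had -0.21 and -0.14, and RPL41 had -0.16. Without placebo array 1, RPS9 had -0.084 and RPS3 -0.021. The plot of log2 changes gives every tested member with its interval.

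**Figure D2:**
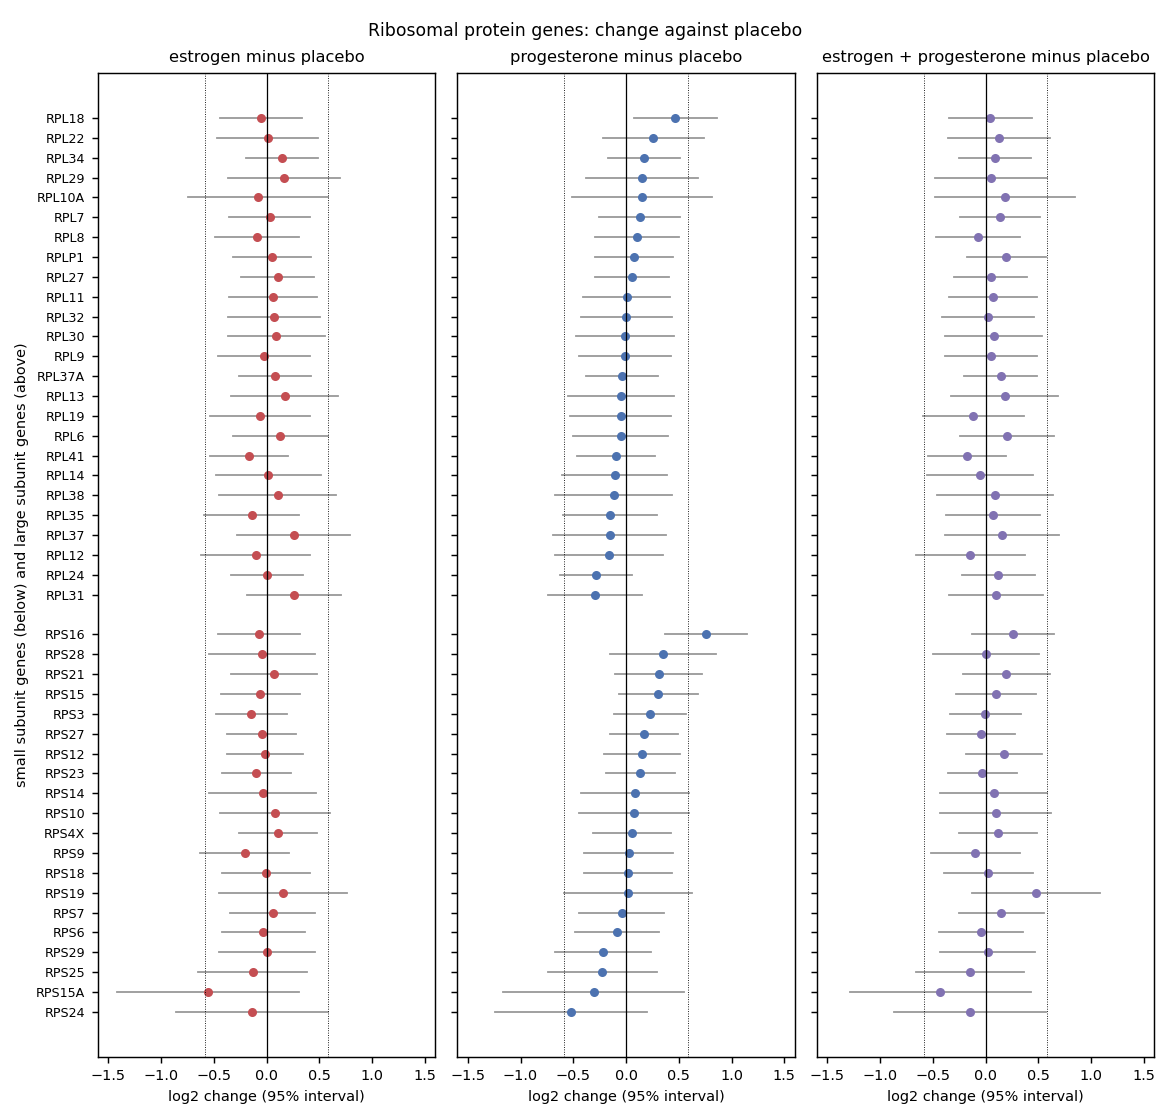
Log2 change against placebo of the 45 tested ribosomal protein genes with estrogen, progesterone and both hormones, with 95% intervals from limma; dotted lines mark 1.5-fold, and genes are ordered by their progesterone value within large (above) and small subunit (below). RPS16 and RPL18 stand highest in the progesterone panel, at 0.76 and 0.47.

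With progesterone, 25 members had a log2 change above 0 and 20 below, with a median of 0.017, and for all tested probe sets the median was 0.002. Without progesterone array 1, 35 were above 0 and 10 below (median 0.13), and without progesterone array 3, 18 were above and 27 below (median -0.026). This balance also depended on the scaling. On the values as deposited, 30 members were above 0 and 15 below (median 0.085). With the arrays shifted to a common median, 30 were above 0 and 15 below (median 0.095). None passed the threshold, where 0.0398% of all tested probe sets did. At an unadjusted p below 0.05 there were 2 members higher and 0 lower, where 3.92% of all tested probe sets were higher and 4.33% lower. In the deposited intensities, all 3 progesterone arrays lay above all 3 placebo arrays for 5 members (RPS16, RPS21, RPS27, RPS28 and RPL37A) and below them for 1 (RPS29). Among all tested probe sets, 8.57% were separated upward and 8.24% downward, so the upward count lay near the background. The 95% interval stayed within 1.5-fold either way for 23 of 45 members and within 2-fold for 42, where 25.8% and 74.9% of all tested probe sets did.

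RPS16, a small subunit protein whose tail reaches the transfer RNA bound in the ribosome, had the highest change. It read 3093, 3787 and 4338 with progesterone, against 2089, 2248 and 1932 with placebo. Estrogen arrays read 1567, 2037 and 2262, and arrays with both hormones 2772, 2078 and 2482. Each progesterone array was thus above every one of the other 9 arrays, while the remaining 3 groups overlapped. The mean was 3739 ± 624 with progesterone and 2090 ± 158 with placebo (SD, n = 3 each). The log2 change was 0.76 ± 0.18 (SE), a fold of 1.69 with a 95% interval of 0.37 to 1.15 on the log2 scale. This missed the threshold (limma adjusted p = 0.270). Over the other ways of processing the arrays, that adjusted p lay between 0.0745 and 0.687 and the log2 change between 0.66 and 0.84.

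RPL18, a protein of the large subunit, came next. It read 890, 1372 and 1276 with progesterone, against 912, 794 and 791 with placebo. Progesterone array 1 lay below placebo array 1, so the groups overlapped, while progesterone arrays 2 and 3 lay above all 9 arrays of the other groups. Estrogen arrays read 698, 833 and 861, and arrays with both hormones 786, 933 and 809. The log2 change was 0.47 ± 0.18 (limma adjusted p = 0.531), and leaving out each array in turn gave 0.35 (without progesterone array 2) to 0.65 (without progesterone array 1). The unadjusted p was above 0.05 without progesterone array 2 or 3 or placebo array 2 or 3.

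RPS28, near the site where the messenger leaves the small subunit, and RPS21, a small subunit protein with no bacterial counterpart, followed. RPS28 read 345, 386 and 367 with progesterone and 225, 315 and 341 with placebo, so that the groups were apart by the gap between 341 and 345. Its log2 change was 0.35 ± 0.23, and 0.20 without placebo array 1. RPS21 read 5144, 6402 and 6741 with progesterone and 4828, 4332 and 4812 with placebo, with no overlap and a log2 change of 0.31 ± 0.19. Both had intervals that reached below 0, and neither passed (limma adjusted p = 0.739 for RPS28 and 0.719 for RPS21).

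**Figure D3:**
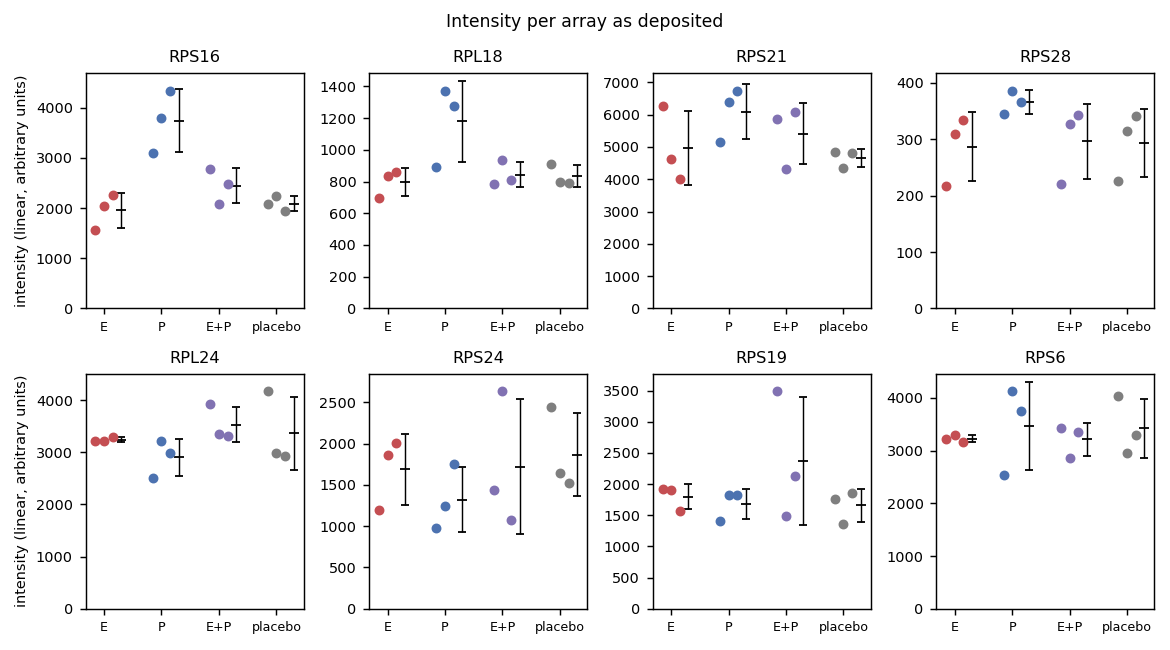
Deposited intensity of 8 ribosomal protein genes on each array, with points for single monkeys and bars for the mean and SD of 3, from left to right estrogen (E), progesterone (P), both hormones (E+P) and placebo. All 3 progesterone arrays lie above the other 9 for RPS16, while for RPS6 the progesterone arrays span 2532 to 4129.

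The lowest log2 changes with progesterone were those of RPS24, RPS15A, RPL31 and RPL24. RPS24 read 975, 1240 and 1753 with progesterone and 2444, 1639 and 1519 with placebo. The groups overlapped, and the log2 change was -0.52 ± 0.33 (limma adjusted p = 0.731). RPS15A had -0.31 ± 0.39 and RPL31 -0.29 ± 0.20, which was -0.12 without progesterone array 1. Without placebo array 1, RPS24 had -0.33. RPL24, a late-joining protein of the large subunit that contacts the small subunit, read 2504, 3208 and 2996 with progesterone and 4176, 2983 and 2929 with placebo. Progesterone array 1 was the lowest and placebo array 1 the highest of the 12, and the log2 change was -0.28 ± 0.16.

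A separation of the deposited intensities did not always remain after the arrays were brought to a common distribution. RPL37A read 7131, 7935 and 7505 with progesterone and 6808, 7090 and 6547 with placebo, all higher. Its log2 change after quantile normalization was yet -0.041 ± 0.16, and 0.049 without placebo array 2. With the arrays shifted to a common median instead, its log2 change was 0.15. RPS29, a zinc-binding protein of the small subunit, read 443, 452 and 414 with progesterone and 492, 495 and 545 with placebo, all lower, and had -0.22 ± 0.21. RPS27, all higher on the progesterone arrays, had 0.17 ± 0.15, and 0.36 with the arrays shifted to a common median.

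Markers of cell types also differed between these groups. The summed intensity of 10 serotonin neuron markers was 1199 to 1407 with progesterone and 1497 to 1869 with placebo, and 8 of the 9 tested were lower. The sum of 9 astrocyte markers was 16346 to 17150 with progesterone and 13411 to 14803 with placebo, and 6 of the 9 had a log2 change above 0. This sum was also above placebo with both hormones, at 15119 to 16880. With estrogen it was 14595 to 16425 and overlapped placebo. That sum was made up mainly of ALDOC and SLC1A2. ALDOC had means of 9663 with progesterone and 7803 with placebo. SLC1A2 had means of 4153 ± 203 with progesterone and 2843 ± 2211 with placebo (SD). The placebo arrays thus spread widely for SLC1A2, and its log2 change of 1.16 ± 0.76 (SE) was uncertain. The other way lay FGFR3, at 744 with progesterone and 1089 with placebo. GFAP, at 1022 with progesterone and 1358 with placebo, and GJA1, at 292 with progesterone and 383 with placebo, were also lower in the mean. The 2 astrocyte markers at an unadjusted p below 0.05 were both lower. None of these markers passed the threshold, and TPH1 was under the offset on all 12 arrays. The sums of the other 6 marker lists (neurons, oligodendrocytes, microglia, endothelium, blood and cerebellum) overlapped between progesterone and placebo. The part of the serotonin neuron and astrocyte markers in the values of RPS16 and RPL18 was not tested.

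With both hormones against placebo, 32 members had a log2 change above 0 and 13 below, and the median was 0.071, where all tested probe sets had -0.003. None passed the threshold, where 0.0133% of all tested probe sets did, and none had an unadjusted p below 0.05 (3.38% of all tested probe sets). No member had its deposited intensities separated between the groups, where 8.61% of all tested probe sets did. The 95% interval stayed within 1.5-fold either way for 29 of 45 members and within 2-fold for 43, where 30.8% and 77.8% of all tested probe sets did. The split depended on single arrays: without combined array 1, 21 of 45 members were higher and the median was -0.026, and without placebo array 2, 25 were higher and the median was 0.011. With the arrays shifted to a common median in place of quantile normalization, 22 were higher and the median was -0.0081. Among the large subunit genes 20 of 25 were higher, with a median of 0.076, and among the small subunit genes 12 of 20, with a median of 0.023. This split by subunit was not recomputed with an array left out.

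RPS19, the gene most often mutated in Diamond-Blackfan anaemia, had the highest change with both hormones. It read 3495, 1496 and 2130 with both hormones and 1764, 1358 and 1856 with placebo. Combined array 1 was the highest of all 12, and array 2 lay within the placebo values. The log2 change was 0.48 ± 0.28 (limma adjusted p = 0.999), with 0.14 without combined array 1 and 0.76 without combined array 2. RPS16 followed with 0.26, then RPL6, a large subunit protein, with 0.20 and RPS21 with 0.20. The lowest were RPS15A with -0.43, RPL41 with -0.18, and RPS24 and RPS25 with -0.15 each. RPS24 had -0.50 without combined array 2 and 0.15 without combined array 3, and RPL6 had 0.043 without placebo array 2. RPS25, a small subunit protein used by some viral messengers to start translation, read 983, 1106 and 878 with both hormones and 1301, 1212 and 849 with placebo, with the groups overlapping.

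Adding progesterone to estrogen was read from the combined group against the estrogen group. Here 30 members had a log2 change above 0 and 15 below, with a median of 0.032, and 0 passed the threshold, where 0% of all tested probe sets did. None had an unadjusted p below 0.05, where 2.87% of all tested probe sets had. The arrays with both hormones lay above all estrogen arrays for RPL24 and RPS3 and below them for RPL27, a large subunit protein, so that 3 members were separated, where 6.37% of all tested probe sets were. The interval stayed within 2-fold either way for all 45 tested members, where 78.7% of all tested probe sets did. Without estrogen array 1, 37 members were higher and the median was 0.12, without estrogen array 3, 19 were higher and the median was -0.018, and without combined array 1, 20 were higher and the median was -0.013.

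Adding estrogen to progesterone was read from the combined group against the progesterone group. The log2 change was above 0 for 27 members and below 0 for 18, with a median of 0.021, and 0 passed, where 0.0133% of all tested probe sets did. At an unadjusted p below 0.05 there were RPL24 on the higher side and RPS16 and RPL18 on the lower side, where 4.06% of all tested probe sets were higher and 3.65% lower. RPL24 read 3927, 3352 and 3317 with both hormones and 2504, 3208 and 2996 with progesterone, without overlap, for a log2 change of 0.41 ± 0.16 (limma adjusted p = 0.540). RPS16, with the arrays given above, had -0.50 ± 0.18 without overlap (limma adjusted p = 0.493), and RPL18 had -0.43 ± 0.18 (limma adjusted p = 0.585). The balance of directions depended on the scaling, since 13 members were higher and the median was -0.11 when the arrays were shifted to a common median. It also depended on single arrays, with 14 higher (median -0.097) without progesterone array 1 and 16 higher (median -0.034) without combined array 1. In the deposited intensities, 2 members (RPL24 and RPS29) were separated upward and 3 (RPS16, RPS28 and RPS3) downward, where 8.2% and 7.82% of all tested probe sets were. These values share the progesterone arrays with the comparison of progesterone and placebo, and the comparisons against placebo share the placebo arrays.

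The interaction asks whether the change with both hormones differs from the sum of the 2 single changes on the log2 scale. It was above 0 for 26 members and below 0 for 19, with a median of 0.037. Without progesterone array 1 it was above 0 for 13 and below 0 for 32, with a median of -0.10. The direction also depended on the scaling. On the values as deposited, 18 were above 0 and 27 below (median -0.037). With the arrays shifted to a common median, 12 were above 0 and 33 below (median -0.073). None passed the threshold, where 0% of all tested probe sets did, and none had an unadjusted p below 0.05, where 4.99% of all tested probe sets had. RPS16 had -0.43 ± 0.25 and RPL18 -0.37 ± 0.25, and RPL24 had 0.40 ± 0.22 (limma adjusted p = 0.970 for each). The interval of the interaction stayed within 2-fold either way for 39 of 45 members, where 49.1% of all tested probe sets did.

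By role, RPS3, RPS15 and RPS23, listed here for the messenger channel and decoding site, had log2 changes of -0.14, -0.057 and -0.098 with estrogen and 0.23, 0.31 and 0.13 with progesterone. With both hormones these 3 ran from -0.033 to 0.099. RPS9, which also borders the channel but was not on that list, had -0.21, 0.026 and -0.097 under estrogen, progesterone and both. None had an unadjusted p below 0.05 in these comparisons. Of proteins at the exit tunnel, RPL19, RPL22, RPL31 and RPL35 were tested, with a median log2 change of -0.026 under estrogen, -0.10 under progesterone and 0.086 under both. RPLP1, the acidic protein of the stalk that recruits translation factors, had log2 changes of 0.053 under estrogen, 0.073 under progesterone and 0.20 under both. RPL11, which joins the 5S particle and binds MDM2 when ribosome assembly fails, had 0.060, 0.006 and 0.071 in the same order.

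RPS6, the substrate of S6 kinase, read 3226, 3301 and 3154 with estrogen, 2532, 4129 and 3742 with progesterone, 3426, 2852 and 3358 with both hormones, and 4038, 2946 and 3288 with placebo. The groups overlapped in every comparison, with log2 changes of -0.030 under estrogen, -0.084 under progesterone and -0.045 under both. A list of genes mutated in Diamond-Blackfan anaemia, not meant to be complete, held 5 tested members (RPS19, RPL11, RPS7, RPS24 and RPS10). Their median log2 change was 0.060 under estrogen, 0.006 under progesterone and 0.096 under both, with none past the threshold. Transcript levels say nothing of phosphorylation or of protein.

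The members were then read together as a score for each array, the mean over the 48 genes of the normalized log2 value minus the gene's own mean over 12 arrays. The scores were 0.097, -0.016 and -0.14 with estrogen, -0.17, 0.096 and 0.10 with progesterone, 0.15, -0.034 and -0.013 with both hormones, and 0.084, -0.092 and -0.055 with placebo. Each group had arrays on both sides of 0, and the 4 groups overlapped. The group means were -0.020 ± 0.12 with estrogen, 0.0077 ± 0.16 with progesterone, 0.033 ± 0.099 with both hormones and -0.021 ± 0.092 with placebo (SD, n = 3 each). The difference between any 2 of these group means was smaller than the SD within each group. Their order depended on the scaling. On the values as deposited, the mean was 0.053 with progesterone and 0.014 with both hormones. With the arrays shifted to a common median, it was 0.076 with progesterone and -0.017 with both hormones. Progesterone was highest in these settings, and both hormones in the others run for the score. The 48 genes include the 3 that were too dim to be tested. Over only the 45 tested members, the group means were -0.021 with estrogen, 0.0086 with progesterone, 0.032 with both hormones and -0.020 with placebo. The score had no test, since its genes were chosen with earlier results of these arrays known.

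**Figure D4:**
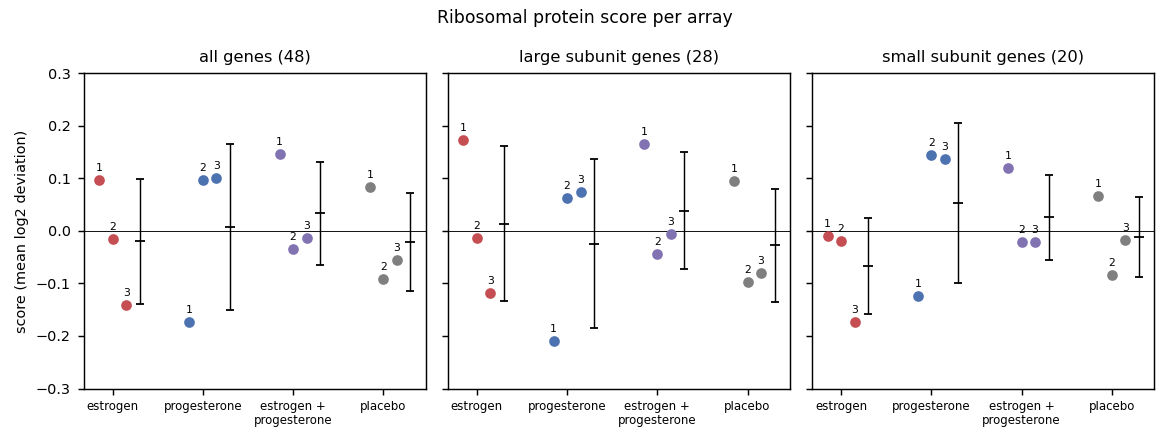
Ribosomal protein score of each array, over all 48 genes and for the large and the small subunit, by group with replicate numbers beside the points and the mean and SD of 3 arrays in black. Within each group the arrays spread more widely than the group means differ, with progesterone array 1 at -0.17 and combined array 1 at 0.15.

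Single arrays moved most members together. Progesterone array 1 was the lowest of the 12 for 18 of 45 tested members, and estrogen array 3 for 11. Estrogen array 1 was the highest for 11 and combined array 1 for 9. The number of members above their own mean ran from 8 of 48 on estrogen array 3 to 38 of 48 on combined array 1. In the deposited intensities the 48 genes held 3.38% to 4.38% of the summed signal of an array, and the lowest and the highest share were both those of progesterone arrays.

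The large and the small subunit differed most on estrogen array 1, where the 28 large subunit genes scored 0.17 and the 20 small subunit genes -0.009. On the other estrogen arrays the pair of scores was -0.013 and -0.019 on array 2 and -0.12 and -0.17 on array 3. With both hormones the pair was 0.17 and 0.12 on array 1, -0.043 and -0.021 on array 2, and -0.007 and -0.021 on array 3. Estrogen array 1 and combined array 1 stood apart in some of the array's controls. The control for 28S ribosomal RNA read 841 and 1354 on them and at most 179 elsewhere, and the 3′ to 5′ ratio of GAPDH was 2.45 and 2.05, against at most 1.46 elsewhere. The 3′ to 5′ ratio of actin, at 1.12 and 1.11, lay within the 1.03 to 1.75 of the other arrays. Without these 2 arrays, 16 of 45 members were higher with estrogen (median -0.063) and 21 with both hormones (median -0.025), and 0 passed. The part of what these controls measure in the scores of these arrays was not tested.

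For 4 genes a second probe set that carried the same symbol was bright enough to be tested. The 2 probe sets of RPS12, a small subunit protein, differed by 0.0065 in their log2 change with progesterone, at 0.15 and 0.16, but lay on opposite sides of 0 with both hormones, at 0.17 ± 0.17 and -0.14 ± 0.17. The identifier of the brighter one marks it as reading a family of similar sequences. With progesterone, those of RPLP1 differed by 0.085 and those of RPL22, a large subunit protein that also binds viral RNA, by 0.21. The widest gap was 0.53 for RPS21, whose brighter probe set had 0.31 and whose dimmer one, with a mean of 63.8, had -0.22 ± 0.30. The higher value of RPS21 with progesterone was not seen in its second probe set. That probe set was far dimmer and its SE was large, so it could not settle the change.

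The probe sets of RPLP1 disagreed in their spread. The brighter one read 3162 to 4499 over the 12 arrays and the dimmer 1096 to 4160, with a residual SD of 0.16 and 0.61. The identifier of the dimmer one also marks a family of similar sequences. The change with both hormones was 0.20 ± 0.17 by the brighter and -0.49 ± 0.43 by the dimmer probe set, and neither passed the threshold.

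**Figure D5:**
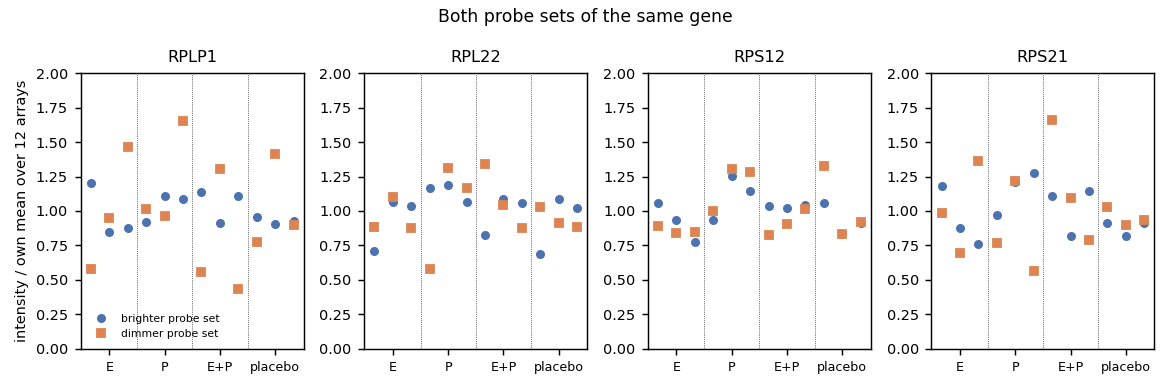
Intensity of both tested probe sets of RPLP1, RPL22, RPS12 and RPS21 on each array, divided by the probe set's own mean over 12 arrays, with arrays in the order estrogen (E), progesterone (P), both hormones (E+P) and placebo. The dimmer probe sets of RPLP1 and RPS21 spread more widely around their own mean than the brighter ones.

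A further 20 probe sets carried a ribosomal protein symbol together with another symbol, such as that of a small nucleolar RNA within the same gene or a pseudogene. They were outside the rule, and none is named as a gene. Their median log2 change was 0.026 under estrogen, 0.065 under progesterone and 0.055 under both, and 0 passed the threshold. With progesterone, 4 of the 20 had an unadjusted p below 0.05, 3 higher and 1 lower, where 3.92% of all tested probe sets were higher and 4.33% lower. With estrogen or both hormones 0 had, where 3.16% and 3.38% of all tested probe sets had.

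Other genes of translation were read beside the members, from lists drawn up for this purpose with earlier results of these arrays known. Of 12 tested genes whose messengers share the pyrimidine-rich start of ribosomal protein messengers, 3 were higher and 9 lower with progesterone than with placebo, with a median of -0.12. In the deposited linear intensities, where bright genes weigh most, their sum was 24828 to 30875 with progesterone and 23085 to 24097 with placebo. The counts and the median are of normalized log2 values, in which each gene weighs the same. The highest log2 change among these genes was 0.32 ± 0.15 for EIF3E, a subunit of initiation factor 3, and the lowest -0.33 ± 0.25 for EIF3H, another subunit. Of 23 tested initiation and elongation factors, 15 were higher and 8 lower, with a median of 0.068. EIF6, which keeps the large subunit from joining too early, had 0.48 ± 0.21, and EIF2S3, a subunit of the factor that brings the initiator transfer RNA, had -0.66 ± 0.23 (limma adjusted p = 0.576 and 0.522).

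Genes that build ribosomes gave 14 tested members, 8 higher and 6 lower with progesterone, with a median of 0.074. BYSL, needed for the small subunit, had 0.49 ± 0.36 and EMG1, which modifies its RNA, had -0.44 ± 0.18. The mitochondrial ribosome, a separate particle, gave 10 tested genes with a median of -0.037, from -0.30 for MRPS11 to 0.54 for MRPL9. In the mTOR and S6 kinase list, 8 of 15 were higher, with a median of 0.024. RPS6KB1, the kinase that phosphorylates RPS6, averaged 547 ± 55 with progesterone and 395 ± 51 with placebo (SD, n = 3 each), a log2 change of 0.47 ± 0.17, and missed the threshold (limma adjusted p = 0.526). RPS6KA4, a stress-activated kinase, had -0.22 ± 0.30. No gene of these 5 lists passed the threshold in any comparison.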

How the data were processed

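Per the labels, each of 12 arrays read dorsal raphe RNA of 1 monkey, in 4 groups of 3. The deposited table gives linear intensity values for 12625 probe sets. From the values, the authors had scaled each array to a mean of about 200.1 with 2% trimmed at each end. The sources used here do not give the software that summarised the probes or any background step. Detection calls were not used. Symbols came from the platform's probe table: 10943 probe sets had 1 symbol, 545 several and 1070 none.

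From the deposited intensities, 67 controls were removed, log2(intensity + 8.26) was taken (the offset is the pooled 10th percentile), arrays were quantile normalized, and the lowest 40% by mean (5023) were left out. Fold changes on this scale understate those of dim probe sets. Group means of 7535 probe sets were fitted with limma 3.58.1 (R 4.3.3, lmFit and eBayes, all arrays, no covariate), 2-sided, with Benjamini-Hochberg adjustment over all of them. The fit was tested on simulated data.

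The members and all lists were chosen with earlier results of these data known. Named members were the 4 highest and 4 lowest log2 changes in each comparison with placebo, those of fixed roles, the 3 brightest and 3 dimmest, and the 3 genes whose probe sets differed most; other lists gave their highest and lowest gene with progesterone. Genes named for separated arrays, for an unadjusted p below 0.05 or as examples of a role were chosen after their values were seen. Marker lists covered serotonin neurons, astrocytes and 6 other classes.

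Labels give groups the same replicate numbers but no shared origin. Deviations of same-numbered arrays correlated at 0.41, 0.30 and 0.13 between the combined and the estrogen group, a hint of pairing from the data alone, so a fit with the number as a block was run as an alternative; the values given have no block. In no other comparison did all 3 pairs exceed 0.1. Alternatives covered scaling, filter, offset, variance model, array weights, probe set choice, the block and leaving out each array.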

Additional observations from a re-analysis of the deposited data

How the results depend on the processing

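No ribosomal protein gene passed the adjusted threshold in any of the 6 comparisons or the F test under any alternative that was run, and of 1515 recomputed values of named members 0 passed and 20 moved by over 1 SE. Array weights brought RPS16 with progesterone to an adjusted p of 0.0745 (limma). With the replicate number as a block (replicate block), 0 members passed in each comparison, RPS16 with progesterone had an adjusted p of 0.304, and in a block fit of the estrogen and combined arrays alone, added after seeing the data, 0 passed, so that the block changed no call. With arrays shifted to a common median, the combined group against progesterone had a median of -0.11 in place of 0.021, and the scores were -0.027 in place of 0.097 on estrogen array 1, 0.22 in place of 0.096 on progesterone array 2 and 0.23 in place of 0.084 on placebo array 1. That scaling also gave 18 members higher with estrogen in place of 23, 30 with progesterone in place of 25 and 22 with both hormones in place of 32. With no filter, the widest gap between probe sets of a gene was 0.88 in place of 0.53, from 6 genes in place of 4. Leaving out each array in turn gave a median of the interaction from -0.10 (without progesterone array 1) to 0.099, of estrogen from -0.063 to 0.071, of progesterone from -0.043 to 0.13 and of both hormones from -0.026 to 0.13. Members at an unadjusted p below 0.05 with progesterone numbered 1 to 3 when an array was left out, 4 with array weights and 6 with the probe sets of several symbols, which was added after seeing the data. The cause was not tested except where fewer arrays or more probe sets enter by construction. With 3 animals a group, the 95% interval of the median member reached 0.43 on the log2 scale to either side of its estimate. For an interval of that width, an estimate between -0.43 and 0.43 has an interval that includes 0.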
